A study of Mus musculus with 11 samples.

Results

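The comparison of microglia beside fibril-loaded neurons with microglia beside untreated neurons rests on 7 of the 11 libraries of the series. They were chosen by the treatment group in the labels: 4 libraries of microglia with neurons given α-synuclein fibrils and 3 of microglia with neurons given none. All cells were from mouse. The microglia were primary cells from C57BL/6 pups of postnatal day 0 to 3, cultured for 7 to 10 days and used at passage 0. The neurons were primary cortical neurons at day 14 in vitro. In the fibril group, fibrils labelled with the dye Atto488 had been added to them at 0.1 µM, left on the cells for 16 h and washed off with PBS. In the other group the neurons had received no fibrils. Both groups shared the 6 h co-culture, so the groups differ, per the labels, in what the neurons had received. The labels give no animal or culture for a library, nor how RNA of the microglia was kept apart from that of the neurons. The p-values therefore measure the spread between these libraries, which may be technical. The remaining 4 libraries are microglia alone and enter here mainly through the shared estimate of spread.

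Microglia are the resident macrophages of the brain and clear protein aggregates and dying cells. α-Synuclein is a neuronal protein that forms fibrils in Parkinson's disease. Microglia meet such fibrils through pattern recognition and scavenger receptors, degrade them in lysosomes, and can answer them through NF-kB, the NLRP3 inflammasome and type I interferon. Tunneling nanotubes, the thin actin-based bridges named in the series title, can carry aggregates and mitochondria between cells.

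The table holds 16934 genes. Of these, 3743 had no count in the 7 libraries, 7166 had a count in every one, and 11276 were tested. Weight is put on the 3097 genes with a mean CPM (count scaled to a common library size) of 50 or more over the 7 libraries, which held between 86.4% and 87.9% of a library's counts. Total counts ran from 8253070 to 16802451 and detected genes from 9157 in fibril library 1 to 10593 in fibril library 4. Library 1 of each group stood apart, with median log2 correlations of 0.797 and 0.802 to the other co-culture libraries against 0.854 to 0.863 for the other 5. Fibril library 1 and untreated library 1 carry neighbouring numbers in their titles, as do libraries 2 and libraries 3 of the groups. The labels do not say what these numbers mark, and the main fit does not use them. The ribosomal RNA precursor Rn45s took 12.8 ± 2.85% of counts with fibrils (SD, n = 4) and 12.6 ± 2.69% without (n = 3), a difference with a two-sided exact permutation p of 0.914, where the smallest p possible is 0.0286. The 20 pan-microglia and macrophage markers, all present, summed to 22421 to 28622 CPM with fibrils and 25246 to 28446 CPM without. The 35 neuron markers summed to 855 to 1279.9 CPM with fibrils and 685 to 962 CPM without, most of it the growth-cone gene Basp1. In microglia alone the list summed to 1536 CPM on average. There Basp1 was at 1144 to 1469 CPM, above every co-culture library, so the sum cannot be read as RNA of the added neurons. The neuronal genes Snap25, Nefh, Slc17a6, Gad1, Slc32a1 and Neurod6 had no count in the 7 libraries. Other members of the list went both ways. Nrgn was at 33.9, 0, 26.7 and 0 CPM in fibril libraries 1 to 4. In untreated libraries 1 to 3 it was at 34.5, 29.04 and 26.02 CPM, and it had no count in microglia alone. Camk2a reached 22.4 CPM in co-culture and 1.88 CPM alone. Dcx reached 6.17 CPM in co-culture and ran from 15.9 to 66.5 CPM alone. The source of these counts was not tested. The sums of the other marker lists were 1213 to 1965 CPM with fibrils and 1699.6 to 2017 CPM without for border-associated macrophages, 163 to 361 CPM with fibrils and 293 to 334 CPM without for the oligodendrocyte lineage, 20.7 to 114 CPM with fibrils and 25.2 to 104 CPM without for astrocytes, 40.3 to 71.3 CPM with fibrils and 47.9 to 105 CPM without for neutrophils and monocytes, 4.504 to 64.04 CPM with fibrils and 18.2 to 81.3 CPM without for endothelial cells and 0 to 5.14 CPM with fibrils and 0 to 2.69 CPM without for fibroblasts and mural cells. None of these ranges lay apart between the groups.

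No gene passed the test between the co-cultures. For 42.1% of the genes of 50 CPM or more the data excluded a 2-fold difference in either direction, among them the lysosomal proteases Ctsb and Ctsd, the lipid carrier Apoe, the ferritin genes and the microglial receptors Csf1r, Cx3cr1 and Trem2. Interferon, cytokine and cell cycle genes were bounded less closely. Among 11276 genes, edgeR's quasi-likelihood test called 0 (0%) at a Benjamini-Hochberg (BH) adjusted p below 0.05, with a smallest adjusted p of 0.903. An unadjusted p below 0.05 was reached by 445 genes (3.95%), where 563.8 would be expected with no difference, 298 of them higher with fibrils (2.64%) and 147 lower (1.3%). Among the 3097 genes of 50 CPM or more, 80 reached it (2.58%), where 154.85 would be expected, 51 higher (1.65%) and 29 lower (0.936%). Below 10 CPM 283 of 3797 genes reached it (7.45%), where 189.85 would be expected. The log2 fold changes, always fibril minus untreated, were above 0 for 50.2% of the 3097 genes of 50 CPM or more. DESeq2 called 202 genes, of which 188 lay under 10 CPM, 168 had no count in one of the groups and 2 were at 50 CPM or more, Tubb4b and Vps35l. limma-voom and limma on the authors' normalized values called 0.

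What the data exclude was read from the 95% interval of each log2 fold change, which carries the spread between libraries and holds for 1 gene at a time. An interval within -1 to 1 excludes a 2-fold difference either way. At 50 CPM or more this was met by 1303 of 3097 genes (42.1%). A 2-fold rise alone was excluded for 2139 genes (69.1%) and a 2-fold fall alone for 2133 (68.9%). A 4-fold difference was excluded for 3024 genes (97.6%) and a 1.5-fold difference for 30 (0.969%). Over all tested genes a 2-fold difference was excluded for 11.7% and a 4-fold difference for 40.7%. With intervals widened to hold for all 11276 genes at once, no gene excluded a 2-fold difference, 376 of the 3097 (12.1%) excluded a 4-fold and 2106 (68%) an 8-fold difference. The 42.1% was 27.9%, 22.6% and 24% without untreated library 1, 2 or 3, and 25.9% without library 1 of both groups, an alternative chosen after the data were seen.

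**Figure D1:**
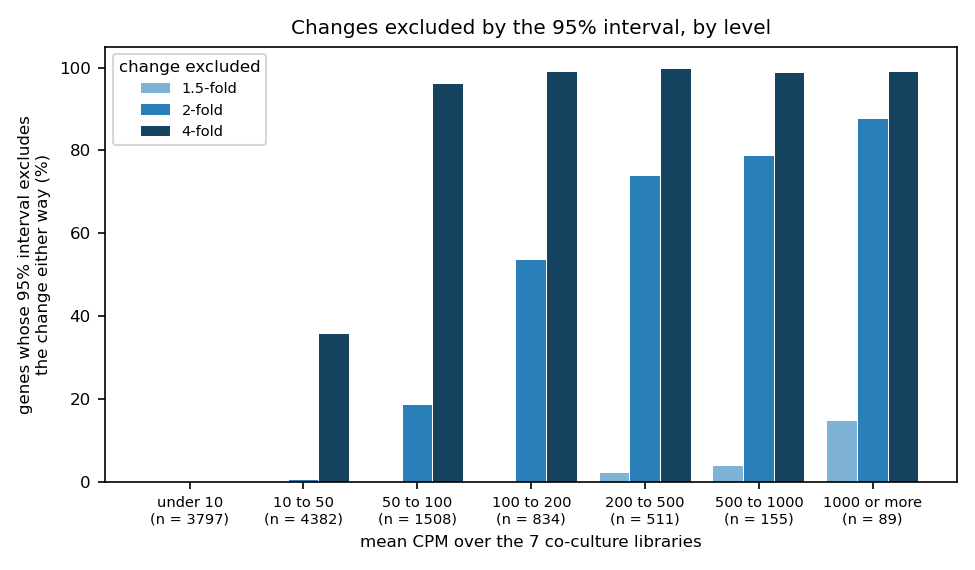
Share of tested genes (%, vertical axis) whose 95% interval excludes a 1.5-fold, 2-fold or 4-fold difference in either direction, by mean CPM over the 7 co-culture libraries (horizontal axis, n genes below each group). The share excluding 2-fold climbs from 18.5% at 50 to 100 CPM to 87.6% at 1000 CPM or more, while a 4-fold difference is excluded for at least 96% of genes in every group from 50 CPM upward.

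The level of a gene set how much could be seen. The median half-width of the interval was 0.92 on the log2 scale at 50 to 100 CPM (1508 genes), 0.74 at 100 to 200 CPM (834), 0.65 at 200 to 500 CPM (511), 0.60 at 500 to 1000 CPM (155) and 0.58 at 1000 CPM or more (89). A 2-fold difference was excluded for 18.5%, 53.6%, 73.8%, 78.7% and 87.6% of the genes in these ranges. At 10 to 50 CPM the median half-width was 1.77 and a 2-fold difference was excluded for 0.388% of 4382 genes. Below 10 CPM it was excluded for none of 3797 genes. To be the only gene called, a gene of 50 to 100 CPM would have needed a median log2 difference of 2.71 (6.53-fold), and a gene of 1000 CPM or more one of 1.72 (3.29-fold). A difference between 2-fold and these sizes could thus be present in a single gene without a call. Of the 3097 genes of 50 CPM or more, 41 (1.32%) had an absolute log2 fold change over 1, and none of the 89 genes of 1000 CPM or more did.

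**Figure D2:**
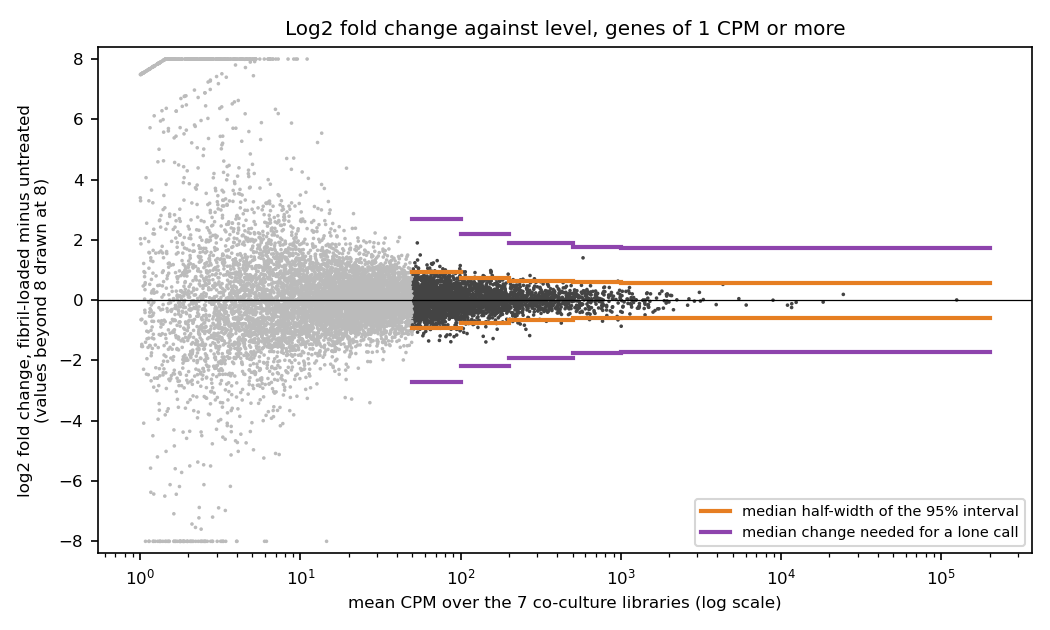
Log2 fold change (fibril-loaded minus untreated, vertical axis) against mean CPM over the 7 co-culture libraries (log scale, horizontal axis) for tested genes of 1 CPM or more, with genes of 50 CPM or more in black. Orange lines mark the median half-width of the 95% interval and purple lines the median change needed for a lone call in each range of level; no black point reaches the purple lines.

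Of the 10 genes of highest level, 9 had intervals that excluded a 2-fold difference. Apoe, the lipid carrier of glia, stood at 12086, 11236, 12489 and 7331 CPM in fibril libraries 1 to 4 and at 13119, 15411 and 9778 CPM in untreated libraries 1 to 3, the order used throughout. The groups overlapped, and the log2 fold change was -0.24, 95% interval -0.802 to 0.32. Brackets after the levels of a gene give its log2 fold change and 95% interval. The cathepsin Ctsb, a lysosomal protease that can cleave α-synuclein, was at 4751, 6833, 6229.7 and 5250.2 CPM against 5818, 6981 and 6542 CPM (-0.16, 95% interval -0.69 to 0.36). Ctsd, the aspartyl protease of lysosomes, was at 4856, 7818, 5724 and 3726 CPM against 4254, 6353 and 5422 CPM (0.05, 95% interval -0.54 to 0.64). Both proteases spread more widely within the fibril group than the group means differed. The ferritin chains Fth1 and Ftl1, which store iron, had log2 fold changes of -0.063, 95% interval -0.64 to 0.51 and -0.071, 95% interval -0.59 to 0.44. Psap, the precursor of the saposins, and the cytoskeletal gene Actb had -0.12, 95% interval -0.79 to 0.55 and 0.19, 95% interval -0.46 to 0.85. The nuclear RNA Malat1 had -0.16, 95% interval -0.94 to 0.61 and Rn45s 0.0081, 95% interval -0.65 to 0.66. The exception was Tmsb4x, an actin-binding peptide gene, at 5432, 14448, 6972 and 8792 CPM against 7199, 11093 and 8424 CPM (0.00083, 95% interval -1.13 to 1.13). Its group means were equal to 3 digits, but fibril libraries 1 and 2 lay far apart.

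The narrowest intervals at 50 CPM or more belonged to genes that define microglia or serve every cell. Lamp1, a lysosomal membrane glycoprotein, had the narrowest, at 1578, 1669, 1923 and 1618 CPM with fibrils against 2132, 1973 and 2006 CPM without. All fibril libraries lay below all untreated ones, and the log2 fold change was -0.26, 95% interval -0.75 to 0.23 (edgeR unadjusted p = 0.275). Igf1, a growth factor that microglia secrete, was at 2092, 2005, 2098 and 2069 CPM against 1495, 1877 and 1998 CPM. All fibril libraries lay above all untreated ones by a small margin (0.21, 95% interval -0.29 to 0.700). Tyrobp, which encodes the adaptor DAP12 that carries the Trem2 signal, was at 2186, 2314, 2172 and 2302 CPM against 2343, 2328 and 2005 CPM. Its groups overlapped, and its log2 fold change of 0.012, 95% interval -0.48 to 0.51 excluded a rise above 1.42-fold and a level below 0.715 of that with untreated neurons. The small GTPase gene Cdc42, the ribosomal gene Rpl6, Ftl1 and the isomerase Ppia were also among the narrowest, with log2 fold changes of 0.094, 0.095, -0.071 and -0.0075. Reads of Rpl6, Ftl1 and Ppia may be shared with pseudogenes. In RefSeq coordinates of GRCm38.p6, Igf1 spans chromosome 10 from 87858265 to 87937047 and Tyrobp chromosome 7 from 30413782 to 30417582.

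**Figure D3:**
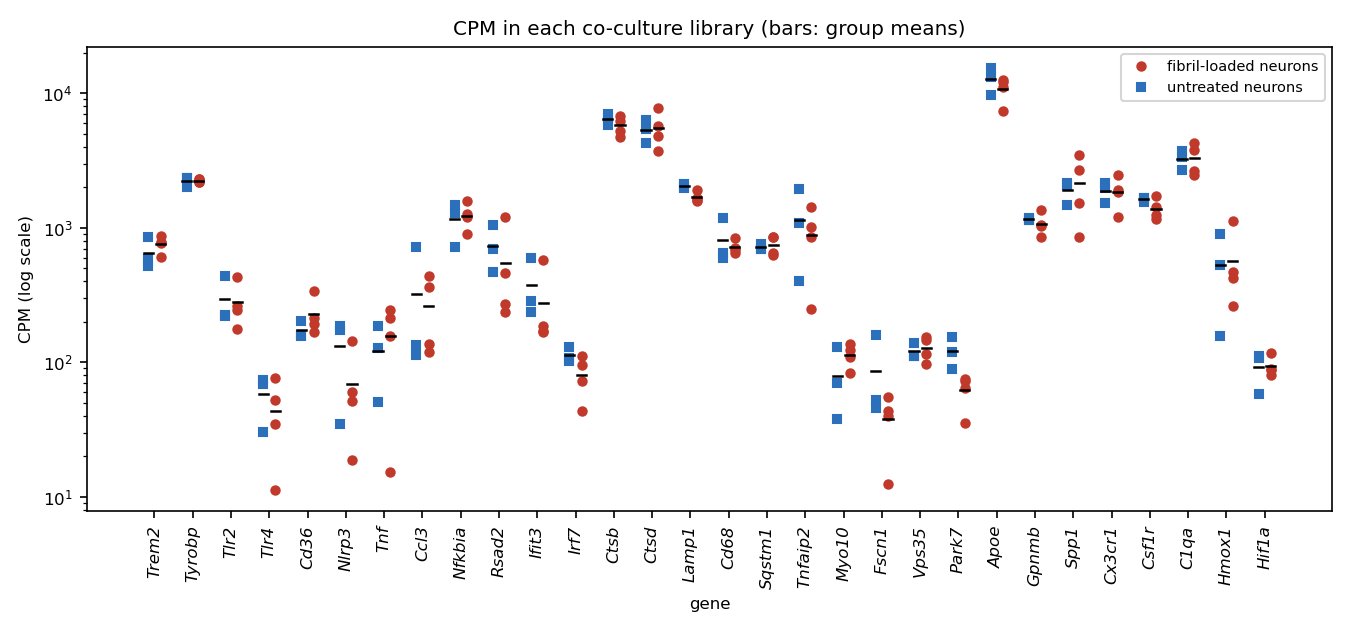
CPM in each co-culture library (log scale, vertical axis) for genes of the fixed list, with group means as bars. Points of the groups overlap for every gene shown except Lamp1 and Park7, which were lower in all 4 fibril libraries. The cytokine gene Tnf had the widest range within a group, from 15.2 to 244 CPM in the fibril libraries.

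Receptors that bind or take up fibrils did not differ detectably. None of the 23 tested members of that list was called. At 50 CPM or more, 10 of 19 members had positive and 9 negative log2 fold changes, with a median of 0.012 beside 0.0024 for all genes of that level. A 2-fold difference was excluded for 9 of them (47.4%, against 42.1% of all such genes). Trem2, the lipid-sensing receptor of disease-associated microglia, was at 784, 867, 776 and 611 CPM against 521, 851 and 582 CPM (0.22, 95% interval -0.34 to 0.78). Tlr2, a receptor for lipoproteins that also binds α-synuclein aggregates, was at 246, 176, 431 and 263 CPM against 219.8, 226 and 436 CPM (-0.073, 95% interval -0.88 to 0.73). In both genes the libraries of the groups interleaved. Tlr4, the endotoxin receptor, was at 11.2, 76.1, 52.3 and 34.5 CPM against 69.1, 30.2 and 74.02 CPM. Its interval of -1.45 to 0.63 left room for more than a 2-fold fall. Cd36, a scavenger receptor, was at 337, 194, 169 and 212 CPM against 203, 160.1 and 158 CPM (0.39, 95% interval -0.26 to 1.05). The inhibitory Fc receptor Fcgr2b was low, at 21.2, 39.2, 74.1 and 25.4 CPM against 25.8, 15.1 and 28.4 CPM (0.79, 95% interval -0.64 to 2.22). Itgam, the αM chain of complement receptor 3, had the smallest p of the list, at 229, 425, 224 and 432 CPM against 727, 369 and 568 CPM (-0.76, 95% interval -1.47 to -0.045, edgeR unadjusted p = 0.0372). Fibril libraries 2 and 4 lay above untreated library 2. In cultures as a whole, fewer cells of a type and less RNA per cell cannot be told apart.

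NF-kB targets and inflammatory mediators varied more between libraries of a group than between the groups. At 50 CPM or more, 7 of 18 members were positive and 11 negative, with a median of -0.11. A 2-fold difference was excluded for 4 (22.2%). The cytokine gene Tnf was at 214, 15.2, 157 and 244 CPM with fibrils against 128, 50.8 and 186 CPM without. Fibril library 2 was far below the other fibril libraries and untreated library 2 the lowest of its group, and the log2 fold change was 0.37, 95% interval -0.85 to 1.598. The chemokine Ccl3 was at 136, 119, 362 and 435 CPM against 135, 114 and 719 CPM (-0.297, 95% interval -1.39 to 0.79). Nfkbia, the feedback inhibitor of NF-kB and one of its direct targets, was at 1268, 893, 1194 and 1575 CPM against 1279.9, 723 and 1480.0 CPM, and its interval excluded a 2-fold difference (0.087, 95% interval -0.62 to 0.797). The NF-kB subunit gene Rela was at 90.1, 86.2, 88.4 and 69.7 CPM against 115, 97.6 and 57.3 CPM (-0.11, 95% interval -0.804 to 0.59). The dendritic and microglial activation marker Cd83 was at 49.4, 57.7, 21.9 and 52.2 CPM against 122, 58.6 and 61.3 CPM, with all fibril libraries below all untreated ones (-0.83, 95% interval -1.75 to 0.087, edgeR unadjusted p = 0.0719). As a list, the mediators were 0.40 and 0.61 above their mean over the 7 libraries in fibril libraries 3 and 4, and at -0.92 in fibril library 2, as medians on the log2(CPM + 1) scale. In untreated libraries 1 to 3 the medians were 0.29, -0.82 and 0.82, so library 2 was the lowest in both groups.

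The inflammasome was sparsely covered. Of 17 tested members of this list, 7 reached 50 CPM, 3 positive and 4 negative, and 1 excluded a 2-fold difference (14.3%). Nlrp3, the sensor, was at 18.9, 51.4, 59.6 and 144 CPM with fibrils against 175, 34.5 and 187 CPM without. Both groups ran over several-fold ranges that overlapped, and the log2 fold change of -0.95, 95% interval -2.32 to 0.42 excluded a 2-fold rise but not a 4-fold fall. Casp1, the protease that matures interleukin-1β, was at 61.3, 64.9, 79.5 and 36.4 CPM against 51.7, 44.1 and 47.9 CPM (0.34, 95% interval -0.65 to 1.33). Pycard, the adaptor ASC, was at 68.7, 137, 158 and 81.95 CPM against 68.3, 123 and 77.6 CPM (0.31, 95% interval -0.46 to 1.09). Il1b, the cytokine itself, was at 0, 0, 25.99 and 74.2 CPM against 45.4, 4.03 and 139.6 CPM. With no count in 2 fibril libraries its interval ran from -4.51 to 1.85 and excluded little.

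Type I interferon response genes lay on the lower side with fibrils as a list. Of 34 tested members 5 were positive and 29 negative, and at 50 CPM or more 1 of 24 was positive and 23 were negative, where 49.8% of all genes of that level were negative. The median log2 fold change of the 24 was -0.46 beside 0.0024 for all genes of that level. None was called, and 1 reached an unadjusted p below 0.05 in edgeR. For 23 of the 24 a 2-fold rise was excluded, and for 3 a 2-fold fall. Rsad2, which encodes the antiviral enzyme viperin, was at 1209, 237, 272 and 458 CPM with fibrils against 1046, 471 and 694 CPM without. Fibril library 1 was the highest of all 7 libraries, the other fibril libraries lay below every untreated one, and the log2 fold change was -0.44, 95% interval -1.42 to 0.55. Ifit3, an interferon-induced antiviral gene whose reads may be shared with a near-identical neighbour, was at 578, 187, 170.3 and 167 CPM against 598, 235 and 287 CPM. Again fibril library 1 and untreated library 1 stood above all others (-0.44, 95% interval -1.39 to 0.52). Irf7, the regulator that amplifies the response, was at 95.2, 43.1, 111 and 72.00 CPM against 131, 108 and 103 CPM (-0.500, 95% interval -1.36 to 0.36). Ddx58, which encodes the RNA sensor RIG-I, had the smallest p of the list, at 129, 60.5, 27.8 and 68.1 CPM against 272, 97.3 and 77.8 CPM (-1.07, 95% interval -2.098 to -0.033, edgeR unadjusted p = 0.0425). The membrane restriction factor Ifitm3 had the narrowest interval, at 1197, 798, 1297 and 1139.8 CPM against 1170.2, 1103 and 1425 CPM (-0.15, 95% interval -0.71 to 0.400).

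Library by library, the 24 interferon genes had median deviations of 0.60, -0.54, -0.31 and -0.38 in fibril libraries 1 to 4, and of 0.98, -0.16 and 0.15 in untreated libraries 1 to 3, on the log2(CPM + 1) scale. Library 1 was the highest of each group, and the ranges of the groups overlapped. Library 1 of each group also had the fewest detected genes of its group and no count of Xist. Both carry neighbouring numbers in their titles, so they may not be unrelated, which was not tested. Over all 34 tested members the median log2 fold change was -0.44. It was -0.15 without untreated library 1, -0.76 without fibril library 1 and -0.44 without both, and it stayed below 0 in all 17 alternative settings. The part of library 1 in the list's values beyond these figures was not tested.

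**Figure D4:**
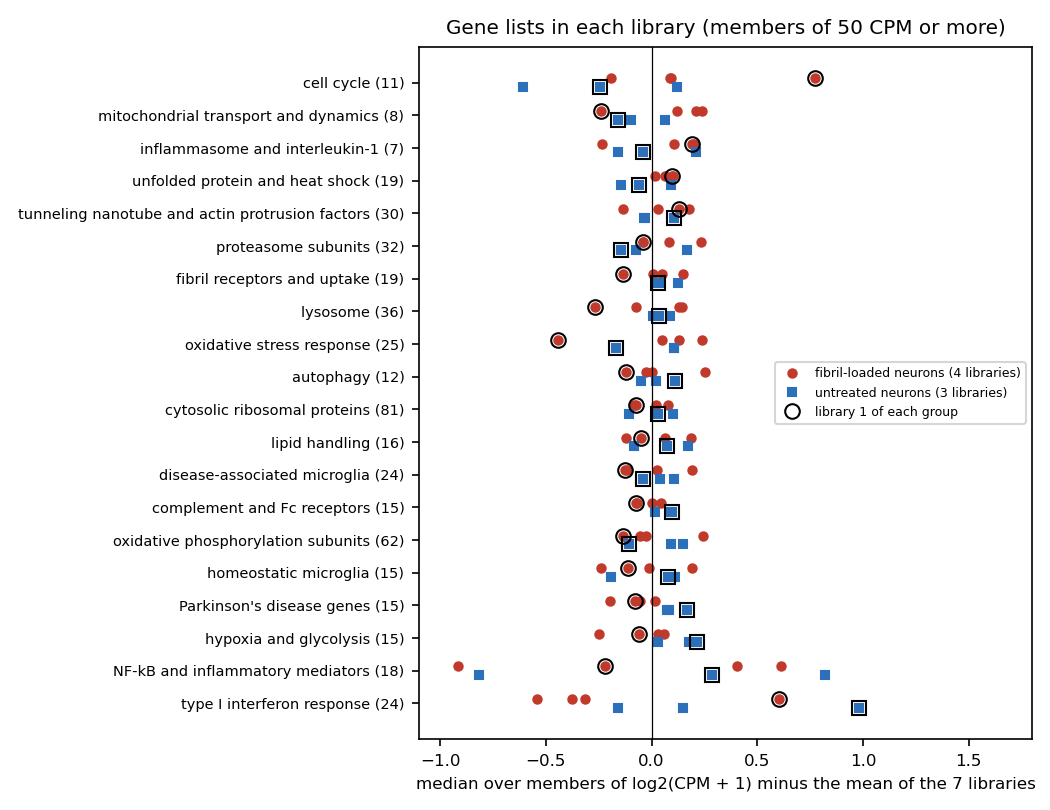
Median over list members of 50 CPM or more of log2(CPM + 1) minus the mean of the 7 libraries (horizontal axis), for the 20 gene programmes (number of members in brackets); circles are fibril-loaded and squares untreated co-cultures, and ringed symbols are library 1 of each group. Most lists stay within 0.25 of their mean in every library, while the interferon and NF-kB lists spread from about -0.92 to 0.98 with both groups along the range.

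Promoters of interferon genes often carry GAAA followed by any 2 bases and another GAAA, the core of the interferon-stimulated response element, to which transcription factors of this pathway bind. A stretch of the Rsad2 promoter from RefSeq (GRCm38.p6) is shown because Rsad2 is a fixed member of the list that carries the motif. Capitals mark the motif, which reads TTTC, 2 bases and TTTC here because it lies on the opposite strand. The stretch is chr12:26456538-26456597 on the minus strand, and the motif begins 120 bases before the start of the gene.
Rsad2: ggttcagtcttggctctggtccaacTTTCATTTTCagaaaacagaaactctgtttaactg
The window of Irf7 held no match, which says only that these letters are not in that window.

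The motif was the only one searched, on both strands, in windows from 250 bases before to 50 bases after each start. It was found in 1131 of 32851 RefSeq windows (3.44%), and 9083 of the 11276 tested genes had a window. Among interferon list members of 50 CPM or more with a window, 10 of 18 carried it (55.6%). Among all genes of that level it was found in 114 of 2507 (4.55%). These 114 genes had a median log2 fold change of -0.18, with 78 negative and 36 positive (68.4% negative). The 2393 genes of that level without the motif had a median of 0.0065, with 1178 negative and 1215 positive (49.2% negative). Leaving out the interferon list, the 104 remaining genes with the motif had a median of -0.14 and 65.4% were negative. Without untreated library 1 the median of the 114 was -0.07 in place of -0.18. Over all tested genes the contrast was smaller. The 352 with the motif had a median of -0.0598, with 191 negative and 160 positive (54.3% negative), against 49.7% negative without it. Of the 352, 8 lower and 10 higher genes had an edgeR unadjusted p below 0.05. Their median was 0.0269 without untreated library 1. These counts describe sequence matches and carry no test, and none of the 114 genes was called.

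The lysosome, where fibrils taken up are degraded, was closely bounded. Of 36 members at 50 CPM or more, 11 were positive and 25 negative, with a median of -0.11. A 2-fold difference was excluded for 26 (72.2%) and a 4-fold difference for all 36. No member was called. Cd68, a lysosomal glycoprotein of phagocytes, was at 652, 703, 837 and 685 CPM with fibrils against 647, 1192 and 599.9 CPM without (-0.18, 95% interval -0.82 to 0.46). Untreated library 2 was the highest, and the fibril libraries lay between it and the other untreated ones. Lipa, the acid lipase of lysosomes, was at 395, 541, 521 and 517 CPM against 455, 422 and 440.3 CPM (0.17, 95% interval -0.37 to 0.71). Asah1, acid ceramidase, had the smallest p of the list, at 15.3, 42.5, 84.1 and 52.2 CPM against 111, 44.8 and 79.6 CPM (-0.69, 95% interval -1.704 to 0.32). Tfeb, the transcription factor that drives lysosomal genes, was low, at 18.4, 34.8, 21.1 and 18.5 CPM against 0, 14.2 and 32.9 CPM (0.56, 95% interval -1.88 to 3.01).

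Autophagy genes were fewer at that level. Of 12 members 7 were positive and 5 negative, and 5 excluded a 2-fold difference (41.7%). Sqstm1, the cargo receptor p62, was at 627, 653, 859 and 859 CPM with fibrils against 701, 701 and 762 CPM without (0.055, 95% interval -0.56 to 0.67). Its fibril libraries lay on both sides of the untreated ones. Gabarap, an autophagosome protein, was at 265, 199, 309 and 315 CPM against 284, 267 and 178 CPM (0.16, 95% interval -0.42 to 0.74), and its relative Map1lc3a at 60.00, 56.4, 131 and 79.2 CPM against 87.6, 26.7 and 36.2 CPM (0.701, 95% interval -0.21 to 1.62).

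Genes for tunneling nanotubes and actin protrusions were divided. At 50 CPM or more, 14 of 30 were positive and 16 negative, with a median of -0.03. A 2-fold difference was excluded for 14 (46.7%), and none was called. Tnfaip2, which encodes the nanotube-inducing protein M-Sec, was at 853, 248, 1005 and 1435 CPM with fibrils against 1959, 404 and 1084 CPM without. Library 2 was the lowest of each group, and the interval of -1.31 to 0.56 did not exclude a 2-fold fall. Myo10, the filopodial myosin, was at 123, 82.7, 108 and 136 CPM against 37.9, 69.7 and 129 CPM (0.51, 95% interval -0.41 to 1.43). Fscn1, the actin bundler fascin, was at 55.5, 39.8, 43.2 and 12.3 CPM against 159, 45.4 and 51.97 CPM (-1.18, 95% interval -2.51 to 0.15), with untreated library 1 about 3 times its group's other libraries. Diaph1, a formin that extends actin filaments, had the smallest p of the list, at 252, 134, 149.6 and 247 CPM against 96.9, 90.5 and 117 CPM. All fibril libraries lay above all untreated ones (0.95, 95% interval 0.23 to 1.66, edgeR unadjusted p = 0.0138). Cdc42, which starts filopodia, was at 1076, 985, 935 and 1070.0 CPM against 1029, 906 and 922 CPM (0.094, 95% interval -0.403 to 0.59).

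Mitochondria can travel through nanotubes on motors and adaptors. Of 8 such genes at 50 CPM or more, 5 were positive and 3 negative, and 4 excluded a 2-fold difference (50%). The kinesin heavy chain Kif5b was at 269, 340.4, 401 and 389.6 CPM with fibrils against 219, 317 and 292 CPM without (0.34, 95% interval -0.299 to 0.99). Rhot1, the mitochondrial adaptor Miro1, was at 21.6, 38.2, 57.99 and 9.09 CPM against 31.1, 29.5 and 49.4 CPM (-0.21, 95% interval -1.47 to 1.06). Vdac1, the channel of the outer membrane, was at 148, 146, 175 and 193 CPM against 216, 167 and 215 CPM (-0.27, 95% interval -0.85 to 0.32).

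Parkinson's disease genes had a slightly negative median that came nearest to 0 without untreated library 3. Over all tested members it was -0.11, and -0.014 without untreated library 3. Of 15 members at 50 CPM or more, 3 were positive and 12 negative, with a median of -0.16, and 6 excluded a 2-fold difference (40%). None was called. Park7, which encodes the redox-sensitive chaperone DJ-1, was at 35.4, 74.9, 64.8 and 72.6 CPM with fibrils against 88.8, 154 and 119 CPM without. All 4 fibril libraries lay below all 3 untreated ones, and the log2 fold change was -0.96, 95% interval -1.71 to -0.22 (edgeR unadjusted p = 0.0133). Ranges lay apart in this direction for 2.16% of genes of that level. Vps35, the retromer subunit, was at 96.5, 145, 155 and 115 CPM against 112, 111 and 139 CPM and excluded a 2-fold difference (0.086, 95% interval -0.56 to 0.73). Lrrk2 had no count in any of the 7. Park7 spans chromosome 4 from 150897133 to 150909921.

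Genes that mark the state of microglia were among the most closely bounded. Of 24 disease-associated genes at 50 CPM or more, 12 were positive and 12 negative, and 19 excluded a 2-fold difference (79.2%). Gpnmb, a glycoprotein of lipid-laden microglia, was at 1041, 857, 1362 and 1030.5 CPM with fibrils against 1149, 1175 and 1142 CPM without (-0.11, 95% interval -0.66 to 0.45). Spp1, osteopontin, was at 858, 3465, 1518 and 2707 CPM against 1487, 2155 and 2096 CPM (0.16, 95% interval -0.597 to 0.92). Its fibril libraries ran from below to above all untreated ones. Ank, a phosphate transporter gene, had the smallest p of this list, at 135, 44.7, 41.6 and 59.7 CPM against 53.4, 29.8 and 18.3 CPM (1.05, 95% interval -0.091 to 2.199). Of 15 homeostatic genes, 5 were positive and 10 negative, and 10 excluded a 2-fold difference (66.7%). Cx3cr1, the receptor of neuronal fractalkine, was at 2479, 1904, 1844 and 1204 CPM against 2144, 1961 and 1535 CPM (-0.017, 95% interval -0.61 to 0.58). Csf1r, the receptor on which microglia depend for survival, was at 1155, 1418, 1719 and 1251 CPM against 1674, 1546 and 1677 CPM (-0.24, 95% interval -0.803 to 0.33). P2ry12, a receptor for ADP that marks resting microglia, was too low to bound, with at most 20.5 CPM in a library and an interval of -5.25 to 4.27. Selplg, the P-selectin ligand, lay lower in all fibril libraries, at 60.8, 97.04, 37.3 and 94.5 CPM against 108, 106 and 151 CPM (-0.75, 95% interval -1.61 to 0.11).

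Complement and Fc receptor genes gave 7 positive and 8 negative values, with 8 of 15 excluding a 2-fold difference (53.3%). C1qa, the initiating complement subunit, was at 3793, 4236, 2649.6 and 2481 CPM with fibrils against 3336, 3715 and 2683 CPM without (0.02, 95% interval -0.52 to 0.56). Fcer1g, the common γ chain of Fc receptors, was at 1689, 1185, 1457 and 1338 CPM against 1543, 1267 and 1421 CPM (0.0069, 95% interval -0.52 to 0.53). All 4 border-associated macrophage markers at that level were negative and all 4 excluded a 2-fold difference, Ms4a7 and Stab1 among them with -0.31, 95% interval -0.94 to 0.31 and -0.096, 95% interval -0.71 to 0.52.

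Energy metabolism and stress genes gave similar bounds. Of 62 oxidative phosphorylation subunits, 27 were positive and 35 negative, and 38 excluded a 2-fold difference (61.3%). Atp5a1, the α subunit of the ATP synthase, was at 374, 445, 459 and 506 CPM with fibrils against 429.7, 454 and 448 CPM without (0.007, 95% interval -0.52 to 0.53). Cox4i1, of complex IV, was at 296, 276, 312 and 191 CPM against 191, 186 and 185 CPM (0.52, 95% interval -0.053 to 1.09). Of 15 hypoxia and glycolysis genes, 4 were positive and 11 negative, and 11 excluded a 2-fold difference (73.3%). A 2-fold rise was excluded for all 15. Hif1a, the oxygen-regulated transcription factor, was at 87.4, 81.04, 89.3 and 118 CPM against 111, 58.3 and 108 CPM (0.023, 95% interval -0.84 to 0.88). Pgk1, a glycolytic kinase, was at 384, 369, 294 and 465 CPM against 413, 435 and 359 CPM (-0.091, 95% interval -0.64 to 0.46). The collagen hydroxylase P4ha1 had lower values in all fibril libraries, at 101, 75.8, 79.4 and 82.5 CPM against 122, 148 and 154 CPM (-0.74, 95% interval -1.42 to -0.061). Of 25 oxidative stress genes, 15 were positive and 10 negative, and 17 excluded a 2-fold difference (68%). Hmox1, heme oxygenase, was at 260.3, 1118, 419.7 and 465 CPM against 156, 896 and 532 CPM, with library 1 the lowest and library 2 the highest of each group (0.099, 95% interval -0.93 to 1.13). Gpx4, the lipid peroxidase that restrains ferroptosis, was at 46.3, 51.03, 108 and 42.7 CPM against 89.8, 127 and 85.3 CPM (-0.697, 95% interval -1.57 to 0.18).

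Protein quality control genes had list medians near 0, and their sign depended on single libraries. Over all tested members the median of the unfolded protein list was 0.054, and -0.0049 without fibril library 3, and that of the proteasome list was 0.026, and -0.022 without fibril library 4. At 50 CPM or more, of 19 unfolded protein and heat shock genes, 13 were positive and 6 negative, with a median of 0.07, and 10 excluded a 2-fold difference (52.6%). Atf4, the transcription factor of the integrated stress response, was at 193, 125, 111 and 167 CPM with fibrils against 62.9, 119 and 80.8 CPM without (0.76, 95% interval 0.101 to 1.43, edgeR unadjusted p = 0.0284). The lowest fibril library lay just under the highest untreated one. The chaperone Hsp90ab1 was at 1264, 1009, 1236 and 1213 CPM against 1303, 1106 and 1180.0 CPM (-0.019, 95% interval -0.54 to 0.51). Of 32 proteasome subunits of that level, 20 were positive and 12 negative, with a median of 0.09, and 17 excluded a 2-fold difference (53.1%). Psma2 had -0.17, 95% interval -0.72 to 0.38 and Psmb4 0.49, 95% interval -0.16 to 1.14. Of 81 cytosolic ribosomal protein genes, 37 were positive and 44 negative, and 65 excluded a 2-fold difference (80.2%). Rpl26 had the smallest p of these, at 224, 225, 162 and 115 CPM against 497, 161 and 404 CPM (-0.97, 95% interval -1.82 to -0.12).

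Lipid handling and cell cycle genes excluded a 2-fold difference less often than the 42.1% of all genes of 50 CPM or more. The median half-width was 0.65 for the lipid list and 0.96 for the cell cycle list, beside 0.80 for all genes of that level. Of 16 lipid genes, 8 were positive and 8 negative, and 6 excluded a 2-fold difference (37.5%). Plin3, a lipid droplet coat protein, was at 37.6, 48.6, 48.05 and 49.1 CPM with fibrils against 74.3, 117 and 78.3 CPM without. All fibril libraries lay below all untreated ones (-0.97, 95% interval -1.74 to -0.21, edgeR unadjusted p = 0.0143). Of 11 cell cycle genes at 50 CPM or more, 7 were positive and 4 negative, with a median of 0.28, and none excluded a 2-fold difference. Ccnd1, cyclin D1, was at 1429.9, 449.7, 331 and 957 CPM against 329, 363 and 206 CPM. Fibril libraries 1 and 4 were the highest, fibril library 3 lay among the untreated ones, and the log2 fold change was 1.405, 95% interval 0.45 to 2.36 (edgeR unadjusted p = 0.00796). Ccnd1 was called by edgeR when no low-count filter was used (BH-adjusted p = 0.021). Stmn1, a microtubule regulator of dividing cells, was at 162, 71.8, 141 and 52.7 CPM against 129, 117 and 130.3 CPM (-0.24, 95% interval -1.01 to 0.54). The cell cycle list had median deviations of 0.77, 0.09, 0.09 and -0.19 in fibril libraries 1 to 4 and of -0.24, 0.12 and -0.61 in untreated libraries 1 to 3, and over all 37 tested members its median turned from 0.09 to -0.18 without fibril library 1.

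Ranges of CPM lay apart for 142 of the 3097 genes of 50 CPM or more (4.59%), 75 higher with fibrils (2.42%) and 67 lower (2.16%), and for 528 of all tested genes (4.68%), 269 higher (2.39%) and 259 lower (2.3%). Ranbp2, a nuclear pore gene, had the largest positive log2 fold change among those at 50 CPM or more. It was at 116, 36.1, 86.4 and 71.1 CPM with fibrils against 29.9, 23.7 and 28.6 CPM without (2.83-fold, log2 95% interval 0.59 to 2.41, edgeR unadjusted p = 0.00349). Tubb4b, a β-tubulin whose reads may be shared with other tubulin genes, was at 183, 92.7, 97.03 and 148 CPM against 68.03, 55.03 and 52.98 CPM (1.15, 95% interval 0.46 to 1.84, edgeR unadjusted p = 0.00294). Genes in this paragraph were picked for ranges that lay apart, so that separation is not a further result. The proton pump subunit Atp6v1c1, which acidifies lysosomes, was at 83.7, 149, 117 and 59.7 CPM against 56.1, 49.8 and 47.00 CPM (1.004, 95% interval 0.26 to 1.75), and the apoptosis effector Bax at 98.6, 48.5, 56.7 and 56.01 CPM against 20.1, 34.95 and 40.00 CPM (1.04, 95% interval 0.099 to 1.97). Nifk, Qrich1, the nucleic acid-binding gene Cnbp and the heparan sulfate enzyme gene Extl3 completed the 8, with log2 fold changes of 1.23, 1.17, 1.06 and 0.96.

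On the lower side Vps35l, a subunit of the retriever complex that recycles membrane proteins from endosomes, was at 41.1, 61.8, 39.1 and 36.5 CPM with fibrils against 139, 107 and 91.4 CPM without (-1.33, 95% interval -2.15 to -0.52, edgeR unadjusted p = 0.0026). Flcn, folliculin, which acts on lysosomal nutrient signalling, was at 16.8, 48.6, 37.2 and 49.2 CPM against 94.9, 93.3 and 102 CPM (-1.35, 95% interval -2.24 to -0.47, edgeR unadjusted p = 0.00431). Spata13, an exchange factor for small GTPases, was at 74.2, 53.8, 45.04 and 33.05 CPM against 124, 109 and 169 CPM (-1.38, 95% interval -2.47 to -0.29). Sptlc1, a subunit of the enzyme that starts sphingolipid synthesis, was at 33.1, 39.6, 39.6 and 34.7 CPM against 76.7, 82.00 and 71.4 CPM (-1.06, 95% interval -1.903 to -0.22). These genes too were picked for ranges that lay apart and for the size of the difference. Their separation, intervals and unadjusted p-values are therefore no further support. The spread among the fibril libraries of Sptlc1 was small. The transcription factor gene Bbx, the elongin subunit gene Eloa, the dynein light chain gene Dynlt1c and the pseudogene Rpl34-ps1 completed the 8, at -1.15, -1.14, -1.11 and -1.27. Reads of Dynlt1c and Rpl34-ps1 may belong to near-identical copies. None of the 16 was called in the edgeR test, and all of their BH-adjusted p-values were 1. Tubb4b and Vps35l were called by DESeq2. Tubb4b lies on chromosome 2 from 25222158 to 25224702, Ranbp2 on chromosome 10 from 58446852 to 58494155, Vps35l on chromosome 7 from 118740178 to 118841491 and Flcn on chromosome 11 from 59791408 to 59810039.

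**Figure D5:**
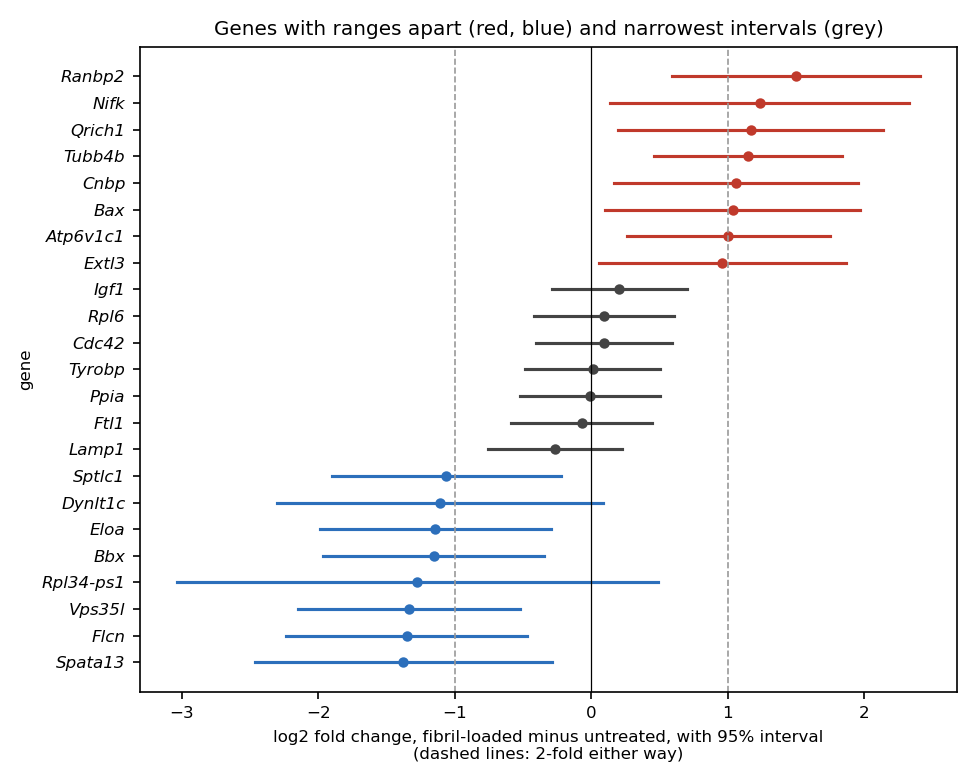
Log2 fold change (fibril-loaded minus untreated) with its 95% interval (horizontal axis) for the 8 largest positive (red) and 8 largest negative (blue) differences among genes of 50 CPM or more whose library ranges did not overlap, and for genes among those with the narrowest intervals (grey). Dashed lines mark a 2-fold difference either way; every red and blue interval crosses one of them, and every grey interval stays between them.

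Some genes could not be bounded even at that level. The widest intervals belonged to Xist, the RNA of the inactive X chromosome, to its antisense partner Tsix, to the prostaglandin synthase Ptges, to the NAD hydrolase Cd38 and to Rpl30, with half-widths of 3.06, 3.001, 2.76, 2.49 and 2.21. Xist had no count in fibril library 1 and untreated library 1, and between 1452 and 2933 counts in the other 5 co-culture libraries. Whether strand was used in counting is not given in the sources used here, so reads of Xist and Tsix cannot be told apart. Ptges was at 15.8, 5.61, 89.9 and 191 CPM with fibrils against 0, 9.14 and 121 CPM without, and Cd38 at 0, 60.5, 113 and 59.1 CPM against 55.4, 73.6 and 275 CPM. In the fibril group both ran from under 10 to over 100 CPM.

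At the low end, 26 of the 16934 genes had a count in every fibril library and none in an untreated one, and 11 of the 16934 the converse. With 4 fibril and 3 untreated libraries these are unlike criteria, so the counts cannot be set against each other. Their largest group means were 14.7 and 13.9 CPM. Fndc10, a membrane protein gene, was at 14.7, 10.04, 21.6 and 12.3 CPM in the fibril libraries, Pgghg, a hydroxylysine glycosidase gene, at 24.2, 5.84, 13.4 and 3.78 CPM and Tdrkh, a gene of the piRNA pathway, at 25.97, 4.905, 17.1 and 1.19 CPM, with no count in untreated libraries. Tet1, a 5-methylcytosine dioxygenase, was at 14.03, 3.58 and 4.98 CPM in the untreated libraries, Spag1 at 6.95, 7.26 and 5.63 CPM and the phosphodiesterase Pde4d at 9.31, 3.495 and 0.178 CPM, with no count in fibril libraries. None of these 6 passed the edgeR test, and DESeq2 called Fndc10, Pgghg and Tdrkh. Having no count in 1 of the groups, these 6 genes have no interval. Genes under 10 CPM as a whole had a median half-width of 5.41 on the log2 scale.

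The genes that differ between untreated co-cultures and microglia alone were also read in this comparison. Both comparisons share the 3 untreated libraries, so the values are given side by side and read no further. Of 52 genes called higher with untreated neurons than alone, 45 reached 50 CPM. Their log2 fold changes with fibrils against without were positive in 12 and negative in 33, with a median of -0.33, and 9 excluded a 2-fold difference (20%). Of 20 genes called lower with untreated neurons, 11 reached 50 CPM. All 11 were positive with fibrils against without, with a median of 0.53, and 1 excluded a 2-fold difference (9.09%). Summed over all members, the first list was at 12017 to 15724 CPM with fibrils and 13785 to 17448 CPM without and the second at 1588 to 2004 CPM with fibrils and 1109 to 1294 CPM without. In microglia alone the sums were 3735 and 4844 CPM on average.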

How the data were processed

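Raw counts by gene symbol were deposited, made by the authors from 3′ mRNA libraries (QuantSeq FWD) with STAR, Partek and DESeq2 on mm10, per the submitters' processing notes, without versions. The authors' deposited normalized table was treated as a score and used in 1 alternative. Strand use and duplicate removal are not given in the sources used here. Groups came from the treatment group in the labels, with library numbers in deposition order.

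The counts were fitted in edgeR 4.0.16 under R 4.3.3 (filterByExpr, TMM scaling, quasi-likelihood test, two-sided, group as the only term, all 11 libraries, BH adjustment over 11276 genes at 0.05). CPM use the TMM-scaled library size. The 95% intervals used the negative binomial weights, the posterior quasi-dispersion and a t distribution. The common biological coefficient of variation was 1.15. Ranges lay apart where all CPM of one group exceeded all of the other. Alternatives used limma 3.58.1, DESeq2 1.42.0, other scalings and filters, a replicate block and left-out libraries. The code was tested on simulated data.

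Genes were named by a rule: a fixed set, the smallest p and narrowest interval of each list, the 8 largest differences each way with ranges apart, the 8 narrowest and 5 widest intervals and the 10 highest levels at 50 CPM or more, and the 3 highest each way with no count in one group. The comparison, members, lists and rule were chosen with earlier results of these data known. Some fixed genes are not reported here.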

Additional observations from a re-analysis of the deposited data

Results flagged for a closer look

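Among the 112 named genes tested, 9 had 1 fibril library far from the other 3, by Dixon's ratio of the gap to the range at the 95% level. Chance flags about 1 group in 20. Fibril library 1 was the one set apart in 5 of them. It was the highest for Rn45s, at 175000 CPM (ratio 0.876), for the interferon-induced gene Ifit3, at 578 CPM (0.951), and for the apoptosis effector Bax, at 98.6 CPM (0.836). It was the lowest for the acid lipase Lipa, at 395 CPM (0.835), and for the lipid droplet gene Plin3, at 37.6 CPM (0.908). Fibril library 3 was the highest for the lipid peroxidase Gpx4, at 108 CPM (0.872), and for the myelin gene Mbp, at 103 CPM (0.83). Fibril library 2 was the highest for the lysosomal regulator Tfeb, at 34.8 CPM (0.835), and fibril library 4 the lowest for the ferritin gene Ftl1, at 11200 CPM (0.914). The untreated group, of 3, could not be checked in this way.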

How the results depend on the processing

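The count of genes called, 0 in the report, was also 0 with RLE scaling, a mean CPM of at least 5, limma-voom, limma on the authors' normalized table, the 7 co-culture libraries alone, and when only genes of 50 CPM or more were tested. It was 5 with no low-count filter (Ccnd1, H2ac24, Rgs7bp, Slc39a6 and Slc5a3, named after their values were seen), 202 with DESeq2, 2 with DESeq2 at 50 CPM or more, and 1 (Slc39a6) without library 1 of both groups, an alternative chosen after the data were seen. Leaving out single libraries gave 0 to 1: Slc39a6 without untreated library 1, Tox2 without untreated library 2 and Samd11 without fibril library 4. The cause was not tested, though 188 of the 202 lay under 10 CPM.

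The share of genes excluding a 2-fold difference was 23.2% at 20 CPM or more, 64.4% at 100 CPM or more, 25.9% without library 1 of both groups, and 22.6% to 35.8% on leaving out single libraries, where fewer samples enter. The change needed for a lone call moved from 2.37 to 1.85 with no filter and 1.9 with DESeq2. Ranges lay apart for 8.13% to 13.7% of genes with 1 library fewer, by construction. The median of genes of 50 CPM or more with the promoter motif was -0.213 to -0.0687 on leaving out single libraries, nearest 0 without untreated library 1. Of 20 programme lists 12 had a negative median, and 9 to 15 in the alternatives. The NF-kB list's median turned from -0.33 to 0.50 without untreated library 3.

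Numbers in the titles are neighbours for 3 pairs of co-culture libraries, namely fibril and untreated library 1, fibril and untreated library 2, and fibril and untreated library 3. Deviations from the group means correlated at 0.0695 to 0.305 within these pairs, against a median of -0.0871 in other pairs, and 5 of the 6 libraries correlated best with their own number. The deviations of a group add up to 0 for each gene, so a positive value in 1 pair pushes others down. The negative median is therefore not an independent baseline. Xist had no count in both libraries of 1 pair, and Ddx3y was lowest in both libraries of another, as given below. These are hints from the data, not the design. With this number as a replicate block edgeR called 0 genes and 283 reached an unadjusted p below 0.05. At 50 CPM or more 41% of genes excluded a 2-fold difference, and the motif genes had a median of -0.132. In this fit 15 lists had a negative median.

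Of 112 named genes tested, 41 changed sign under 1 or more settings, and of the 50 with an absolute log2 fold change of 0.5 or more 3 values did. Median intervals were widest for genes under 50 CPM, and the part of depth in this was not tested.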

Other observations

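Within the 3 pairs of libraries with neighbouring numbers, interferon list members of 50 CPM or more had median differences (fibril minus untreated, log2(CPM + 1)) of -0.41, -0.44 and -0.54. In all 3 pairs 12 of 24 were lower (50%) and 0 higher, against 12% lower and 13.2% higher of all 3097 genes of that level. For the NF-kB list 7 of 18 were lower in all 3 pairs (38.9%) and 1 higher, and for hypoxia and glycolysis 5 of 15 lower (33.3%) and 0 higher. For cell cycle genes 5 of 11 were higher in all 3 pairs (45.5%) and 0 lower. The median differences of that list were 0.385, -0.339 and 0.656, so its sign was not the same in all pairs. Fibril library 4 is in no pair. Its median deviations from the mean of the 7 libraries were -0.38 for the interferon, 0.61 for the NF-kB and -0.19 for the cell cycle list. The labels do not say that these numbers mark a shared culture, so the pairs are a description.

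Counts of sex-linked genes differed between libraries of the same group. Xist had no count in fibril library 1, untreated library 1 and library 2 of microglia alone, and between 1452 and 3801 counts in the other 8 libraries. Ddx3y, a Y-linked helicase gene, had 78, 161 and 113 counts in fibril library 2, untreated library 2 and library 3 of microglia alone, and between 298 and 836 in the other 8. Other Y-linked genes did not follow Xist: in fibril library 1, untreated library 1 and library 2 of microglia alone, Kdm5d had 359, 582 and 81 counts and Uty 0, 0 and 235.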
